A study of Drosophila melanogaster with 12 samples.

Results

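The mitochondrial ribosomal protein (mRp) genes are the nuclear genes for the protein subunits of the ribosome that works inside mitochondria. Every gene whose symbol begins with mRpL or mRpS followed by a number was taken, which gave 72 of the 17589 features in the deposited tables, which hold 12710 protein-coding genes. By name, 46 belong to the large subunit (mRpL) and 26 to the small subunit (mRpS), and the tables describe all 72 as mitochondrial ribosomal. All 72 passed the filter on low counts in each comparison, and the lowest count of any of them in any library was 24. No expression value was used to choose them. The pattern misses *tko* and *bonsai*, which also encode small subunit proteins of this ribosome and are described separately.

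RNA was measured in heads of 2-day-old *Drosophila melanogaster* of 3 genotypes. All of them carried the neuronal driver nSybGal4. Controls carried it over w[1118] with no RNAi construct, and the other flies carried it with the ND-75 weak RNAi (ND-75 KDweak, written KDweak below) or the ND-75 strong RNAi (ND-75 KDstrong, written KDstrong). The study's methods add the temperature-sensitive repressor Tub-Gal80ts to the driver, which the sample labels do not name. Each RNAi is 1 line, and *ND-75* encodes a core subunit of complex I of the respiratory chain. Each genotype had 4 libraries, and 1 library was made from 20 pooled heads (10 male, 10 female). Separate crosses are not stated, so p-values cover the spread between these pools only, which may be technical. RNAi was driven in neurons while RNA came from the whole head, and in such bulk RNA fewer cells of a type and less RNA per cell cannot be told apart.

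The mitochondrial ribosome translates the few proteins that mitochondrial DNA still encodes, all of them membrane subunits of the respiratory chain or ATP synthase, several in complex I. Its 2 ribosomal RNAs are transcribed from mitochondrial DNA, whereas its proteins are made in the cytoplasm and imported, so that assembly draws on both genomes. Some subunits are homologues of bacterial ribosomal proteins and keep the bacterial number, and others were acquired in mitochondria. Neurons, muscle and photoreceptors depend strongly on oxidative phosphorylation.

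Total counts per library were between 19309456 and 34169998, and markers of neurons (11 genes), glia (8), photoreceptors (10), muscle (10), fat body (11) and hemocytes (7) were all present, with 0 of them at 0 throughout a genotype. Levels are given as CPM, counts relative to the size of the library as scaled by TMM. The targeted gene *ND-75* was at 709 to 1390 CPM in controls, 562 to 648 in KDweak and 459 to 650 in KDstrong. Its levels in either knockdown did not overlap with control, although the adjusted p of edgeR's quasi-likelihood test was 0.116 and 0.117. Control replicate 3 and KDstrong replicate 4 stood apart from the libraries of their genotypes. Control replicate 3 had counts for 12966 features against 13729 to 14967 in the others. In these 2 libraries log2 CPM relative to the mean of all 12 fell by 0.196 and 0.105 for each doubling of gene length, whereas in KDweak replicate 2 it rose by 0.105 and in the other libraries the slope was between -0.031 and 0.067. The mRp genes are short, with a median exon length of 783 bases (327 to 2078) against 1809 for protein-coding genes, so the main results below are also given without the libraries concerned.

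In the genome the 72 genes were dispersed, with 21 on chromosome arm 3R, 17 on 3L, 12 on 2L, 11 on 2R and 11 on X (release 6 coordinates). They were compact. The median gene had 2 exon blocks and 579 coding bases, 54 genes had 1 annotated transcript, and 9 had 1 exon block. Many lay close to other genes. The exons of 42 overlapped those of another gene, 41 of them a gene on the opposite strand and 2 a gene on the same strand, and 51 had the start of a divergently transcribed gene within 500 bases. The library kit named in the labels does not record strand in its standard form, and the strand setting of the counting is not given in the sources used, so where exons overlap reads of a gene and of its antisense neighbour cannot be told apart.

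Levels within the family were even. Divided by gene length, the mean control level was between 7.05 and 94.5 CPM per kilobase with a median of 24.4, and 64 of the 72 genes lay within 2-fold of that median. The middle of the distribution ran from 17.9 at the 25th percentile to 30.2 at the 75th, a ratio of 1.69. The mRpL and mRpS genes had similar medians (24.8 and 21.6 CPM per kilobase). So did the 42 genes whose number is that of a bacterial protein (L up to 36, S up to 21) and the 30 with higher numbers (23.4 and 24.8 CPM per kilobase), although some of the latter are also counted as bacterial homologues in human. For comparison, on the same scale the median of 85 cytoplasmic ribosomal protein genes was 41.2 times that of the mRp genes, and the median of 32 nuclear complex I genes was 8.23 times that of the mRp genes. The summed mRp level was lowest in KDweak replicate 2 (1176 CPM) and highest in control replicate 3 (2361 CPM). In these libraries mRp genes had 22969 of 19309456 counts and 59563 of 27354627 counts.

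*mRpL28*, a homologue of bacterial L28, had the highest level of the family, 94.5 ± 27.0 CPM per kilobase in controls (mean ± SD, n = 4 here and below). *mRpS9*, the homologue of bacterial S9 in the head of the small subunit, followed with 64.3 ± 8.32, then *mRpS22*, a mitochondria-specific small subunit protein, with 43.0 ± 18.7, and *mRpL12*, the stalk protein that recruits translation factors, with 42.9 ± 15.3 CPM per kilobase. The difference between *mRpS22* and *mRpL12* was well within their spread. At the other end were *mRpL34* (7.05 ± 0.976 CPM per kilobase), *mRpL21* (8.45 ± 2.36), *mRpL33* (9.44 ± 2.43) and *mRpS18B* (10.6 ± 3.52), and neighbours in that order also did not differ beyond their spread. The value of *mRpL21* rests on an exon length of 1696 bases over 3 annotated transcripts, of which 603 are coding, so its level per kilobase depends on which transcript heads use. The order was largely kept across genotypes, as 8 of the 10 highest genes in controls were among the 10 highest in KDweak and 8 in KDstrong.

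**Figure D1:**
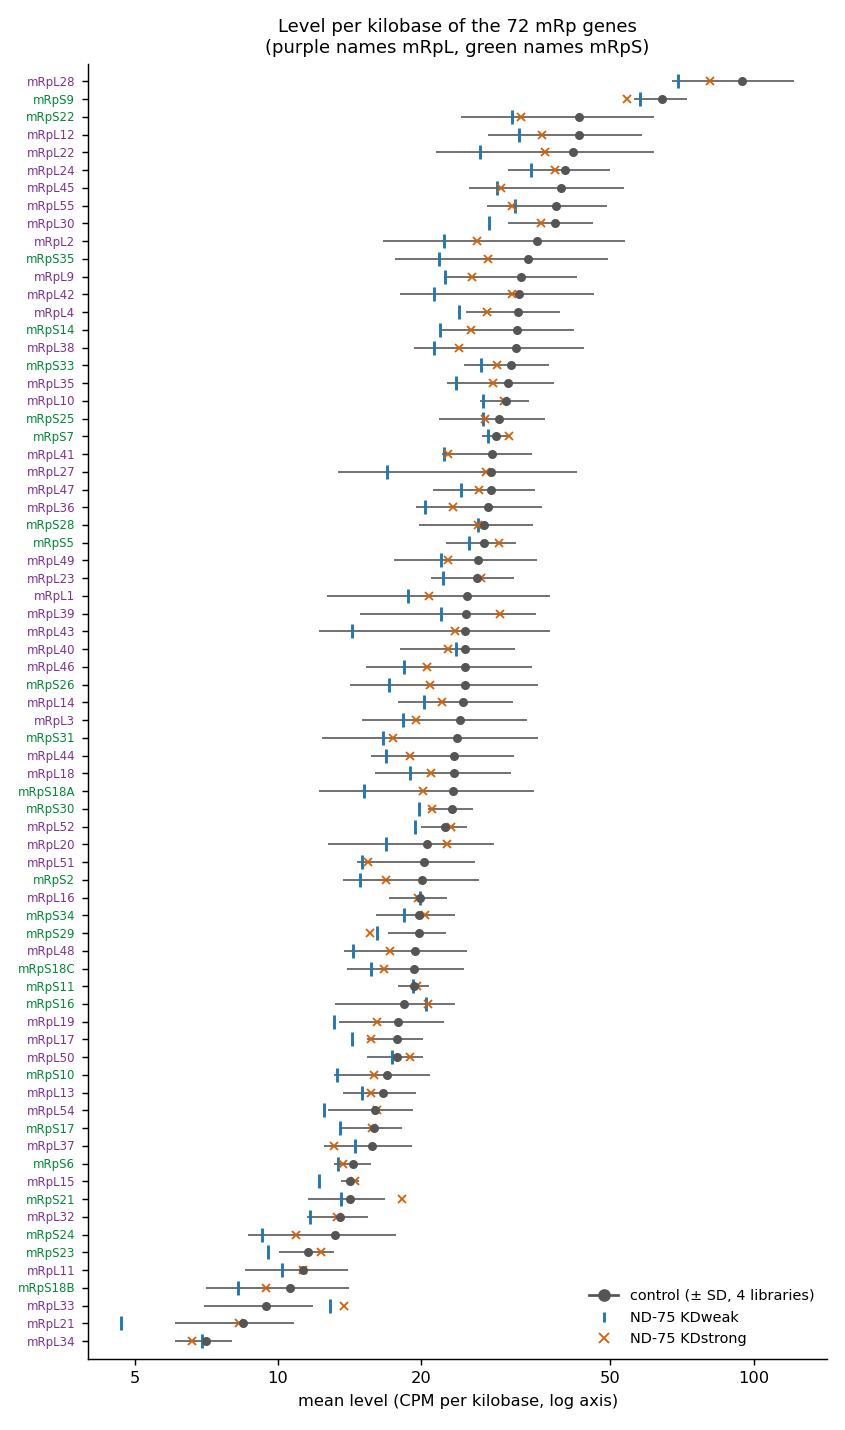
Mean level of each of the 72 mRp genes in CPM per kilobase on a log axis, ordered by the control mean (grey circles, bars ± SD of 4 libraries), with the means of KDweak (blue bars) and KDstrong (orange crosses). Most genes lie near the median of 24.4, *mRpL28* is highest at 94.5, and at *mRpL21* the KDweak mean lies to the left of the other genotypes.

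Summed over the family, mRp transcripts were at 1305, 1555, 2361 and 1471 CPM in control replicates 1 to 4. They were at 1294, 1176, 1426 and 1390 CPM in KDweak and at 1507, 1354, 1266 and 1841 CPM in KDstrong. The sums of the 3 genotypes overlapped. The highest library of controls (replicate 3) and of KDstrong (replicate 4) were the ones in which log2 CPM fell most steeply with gene length. The mean was 1673 ± 470.0 CPM in controls, 1321.5 ± 112 in KDweak and 1492 ± 253 in KDstrong. Without control replicate 3 the control mean was 1444 ± 127 CPM (n = 3), and without replicate 4 the KDstrong mean was 1375 ± 122 CPM (n = 3). With the length trend of each library removed, the sums were 1378 to 1869 CPM in controls, 1326 to 1411 in KDweak and 1385 to 1560 in KDstrong. By subunit, the mRpL sums were 1070.3 ± 323, 823 ± 70.5 and 953 ± 164 CPM and the mRpS sums 603 ± 147, 498 ± 41.4 and 539 ± 89.2 CPM in control, KDweak and KDstrong, and both overlapped between the genotypes.

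**Figure D2:**
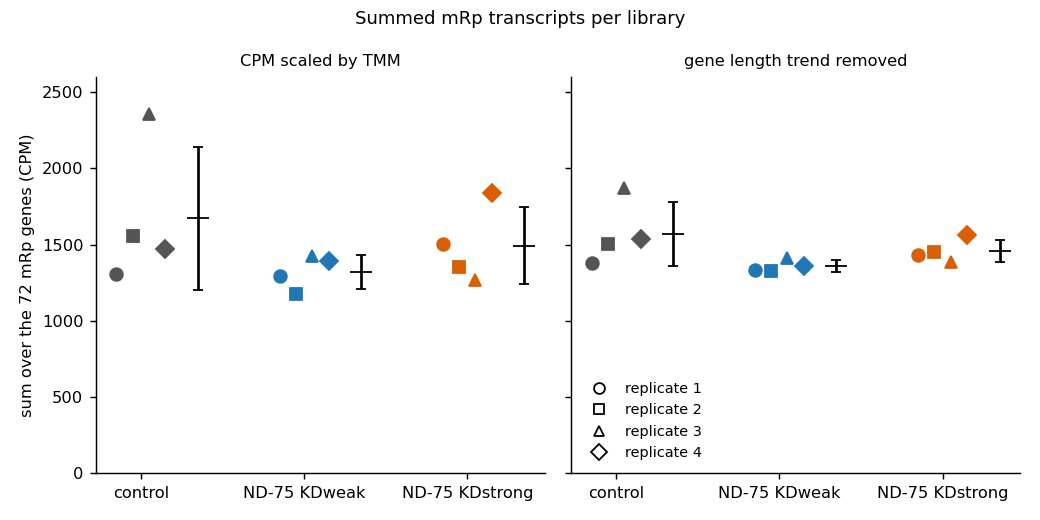
Sum of the CPM of the 72 mRp genes in each library by genotype (symbols mark the replicate), with mean ± SD of 4 libraries as a black bar, as scaled by TMM (left) and after removal of each library's gene length trend (right). Control replicate 3 (2361 CPM) and KDstrong replicate 4 (1841 CPM) lie above the others on the left and closer to them on the right.

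The mRp genes followed each other across libraries. Control replicate 3 was the highest control library for 69 of the 72 genes and the highest of all 12 libraries for 57, and KDstrong replicate 4 was the highest of its genotype for 65, while over all 10830 features these libraries were highest in their genotype for 42.8% and 41.3%. The SD of log2 CPM between control libraries had a median of 0.36 over the family, and 0.17 once the median of the 72 genes in each library was subtracted, which made the SD smaller for 60 genes. In KDweak the corresponding medians were 0.17 and 0.13 (smaller for 58 genes), and in KDstrong 0.25 and 0.12 (65 genes). Before subtraction these spreads were like those of all features (0.32, 0.18 and 0.26). A like subtraction was not made for other genes, so these values do not show that the shared movement was particular to the family.

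The coefficient of variation over control libraries was lowest for *mRpL15* (4.43%), a large subunit protein with a bacterial homologue, which was at 14.0, 15.1, 15.3 and 14.1 CPM. It was highest for *mRpL2* (52.8%), a protein of the peptidyl transferase region, at 23.6, 29.2, 65.1 and 27.8 CPM. The high value of *mRpL2* was again that of control replicate 3, in which *mRpL15* was close to replicate 2.

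In KDweak heads, most mRp genes had values below control and 1 was called. Of the 72 genes, 67 had a negative log2 fold change against control (93.1%, against 50.8% of the 10415 features tested). The median over the family was -0.27 (25th to 75th percentile -0.42 to -0.13), and the median over all features was -0.01. By edgeR's quasi-likelihood test at an adjusted p under 0.05, 1 mRp gene (*mRpL21*) was lower and 0 were higher, against 3.98% of all features called lower and 2.56% called higher. At an unadjusted p under 0.05, 13 were lower and 0 higher, against 1249 lower and 909 higher of the 10415 features. DESeq2 also called *mRpL21* lower and none higher. The libraries of the genotypes did not overlap for 7 mRp genes, all lower in KDweak (*mRpL4*, *mRpL17*, *mRpL19*, *mRpL21*, *mRpL22*, *mRpL30* and *mRpL43*), and for 0 that were higher, against 9.35% and 6.06% of all features. That is close to the background share. All 7 encode large subunit proteins, as do 46 of the 72 members. The median log2 fold changes of the subunits were similar, -0.31 for mRpL and -0.23 for mRpS genes. Precision was limited, with a median SE of 0.199 for the log2 fold change of an mRp gene, and the 95% interval lay within 1 of 0 for 63 of the 72. The size of the family's shift rested in part on 1 library. Without control replicate 3 the median was -0.12, with 54 genes negative, and without control replicate 3 and KDweak replicate 2 it was -0.07, with 45 negative. With the gene length trend removed it was -0.20, with 59 negative, and 2 genes (*mRpL21* and *mRpL30*) were called lower.

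*mRpL21* encodes a homologue of bacterial L21, a structural protein of the large subunit. The gene (FBgn0036853) lies on chromosome arm 3L at 19253290 to 19255061 on the minus strand (release 6). Its exons overlap no other gene, and the divergent gene *rept* starts 279 bases away. *mRpL21* was at 9.76, 14.6, 19.5 and 13.5 CPM in control replicates 1 to 4, at 9.02, 6.71, 7.70 and 8.42 in KDweak, and at 15.6, 12.1, 10.0 and 18.4 in KDstrong. All 4 KDweak libraries were below every library of the other genotypes, and control and KDstrong overlapped. The means were 14.3 ± 4.0, 7.96 ± 0.995 and 14.0 ± 3.73 CPM. Against control, *mRpL21* in KDweak had a log2 fold change of -0.82 (SE 0.20, edgeR adjusted p = 0.0355), which is 0.565 times the control level. This call was near the threshold, since the adjusted p passed 0.05 when any 1 KDweak library or control replicate 2 or 4 was left out (log2 fold changes of -0.90 to -0.76, adjusted p 0.0601 to 0.102). It was kept without control replicate 3 (-0.66, adjusted p = 0.032) and with the length trend removed (-0.70, adjusted p = 0.0137). Relative to the median of the family in the same library, *mRpL21* was at -0.58, -0.30, -0.39 and -0.24 on the log2 scale in controls and at -0.64, -1.05, -1.02 and -0.95 in KDweak. The mean difference on this measure was -0.54, the lowest of the 72 genes, and the highest was 0.72 for *mRpL33*. The neighbour *rept*, a helicase of chromatin remodelling complexes, had a log2 fold change of -0.33 (SE 0.20, adjusted p = 0.37).

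The next smallest p-values against control belonged to *mRpL43*, a mitochondria-specific large subunit protein, and *mRpL30*, a homologue of bacterial L30. *mRpL43* was at 13.6, 15.5, 34.2 and 14.3 CPM in controls and at 9.88, 8.70, 13.0 and 13.2 in KDweak. The groups did not overlap, the highest KDweak library at 13.2 CPM lying just below the lowest control at 13.6. The log2 fold change was -0.77 (SE 0.29, adjusted p = 0.165), and -0.36 without control replicate 3 (adjusted p = 0.192). *mRpL30* was at 21.3, 27.7, 33.7 and 23.8 CPM in controls and at 20.6, 15.3, 20.7 and 20.7 in KDweak, a log2 fold change of -0.44 (SE 0.17, adjusted p = 0.171). With the length trend removed the log2 fold change of *mRpL30* was -0.36 (adjusted p = 0.0362).

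Only 5 mRp genes had a positive log2 fold change in KDweak against control, and 0 of them were called. The largest was that of *mRpL33*, a small protein with a bacterial homologue, at 0.48 (SE 0.25, adjusted p = 0.298), followed by *mRpS16* at 0.18 (SE 0.22) and *mRpS11*, a protein of the small subunit platform, at 0.02 (SE 0.13). *mRpL33* was among the least abundant members, with counts of 68 to 202 per library.

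Of 12 members taken by their place in the ribosome, all had negative values in KDweak against control with all libraries. In the stalks and the factor-binding region, *mRpL12* had a log2 fold change of -0.39 (SE 0.21), *mRpL10* of -0.14 (SE 0.15), *mRpL1* of -0.39 (SE 0.26) and *mRpL11* of -0.12 (SE 0.20). In the peptidyl transferase region, *mRpL2* had -0.62 (SE 0.28) and *mRpL3* had -0.38 (SE 0.22). *mRpL45*, which in human tethers the ribosome to the inner membrane at the tunnel exit, had -0.42 (SE 0.21), and *mRpL44*, which carries an RNA-binding domain in human, had -0.45 (SE 0.20). In the small subunit, *mRpS22* had -0.45 (SE 0.24), *mRpS29*, the homologue of the human GTP-binding protein DAP3, had -0.26 (SE 0.13), *mRpS34* had -0.08 (SE 0.16) and *mRpS7*, needed for small subunit assembly, had -0.03 (SE 0.12). None of these 12 was called (adjusted p 0.239 to 0.902). Without control replicate 3 their log2 fold changes were smaller and lay between -0.22 (*mRpL44*) and 0.04 (*mRpL11*), among them -0.20 for *mRpL2*, -0.09 for *mRpL3* and 0.04 for *mRpS34*.

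**Figure D3:**
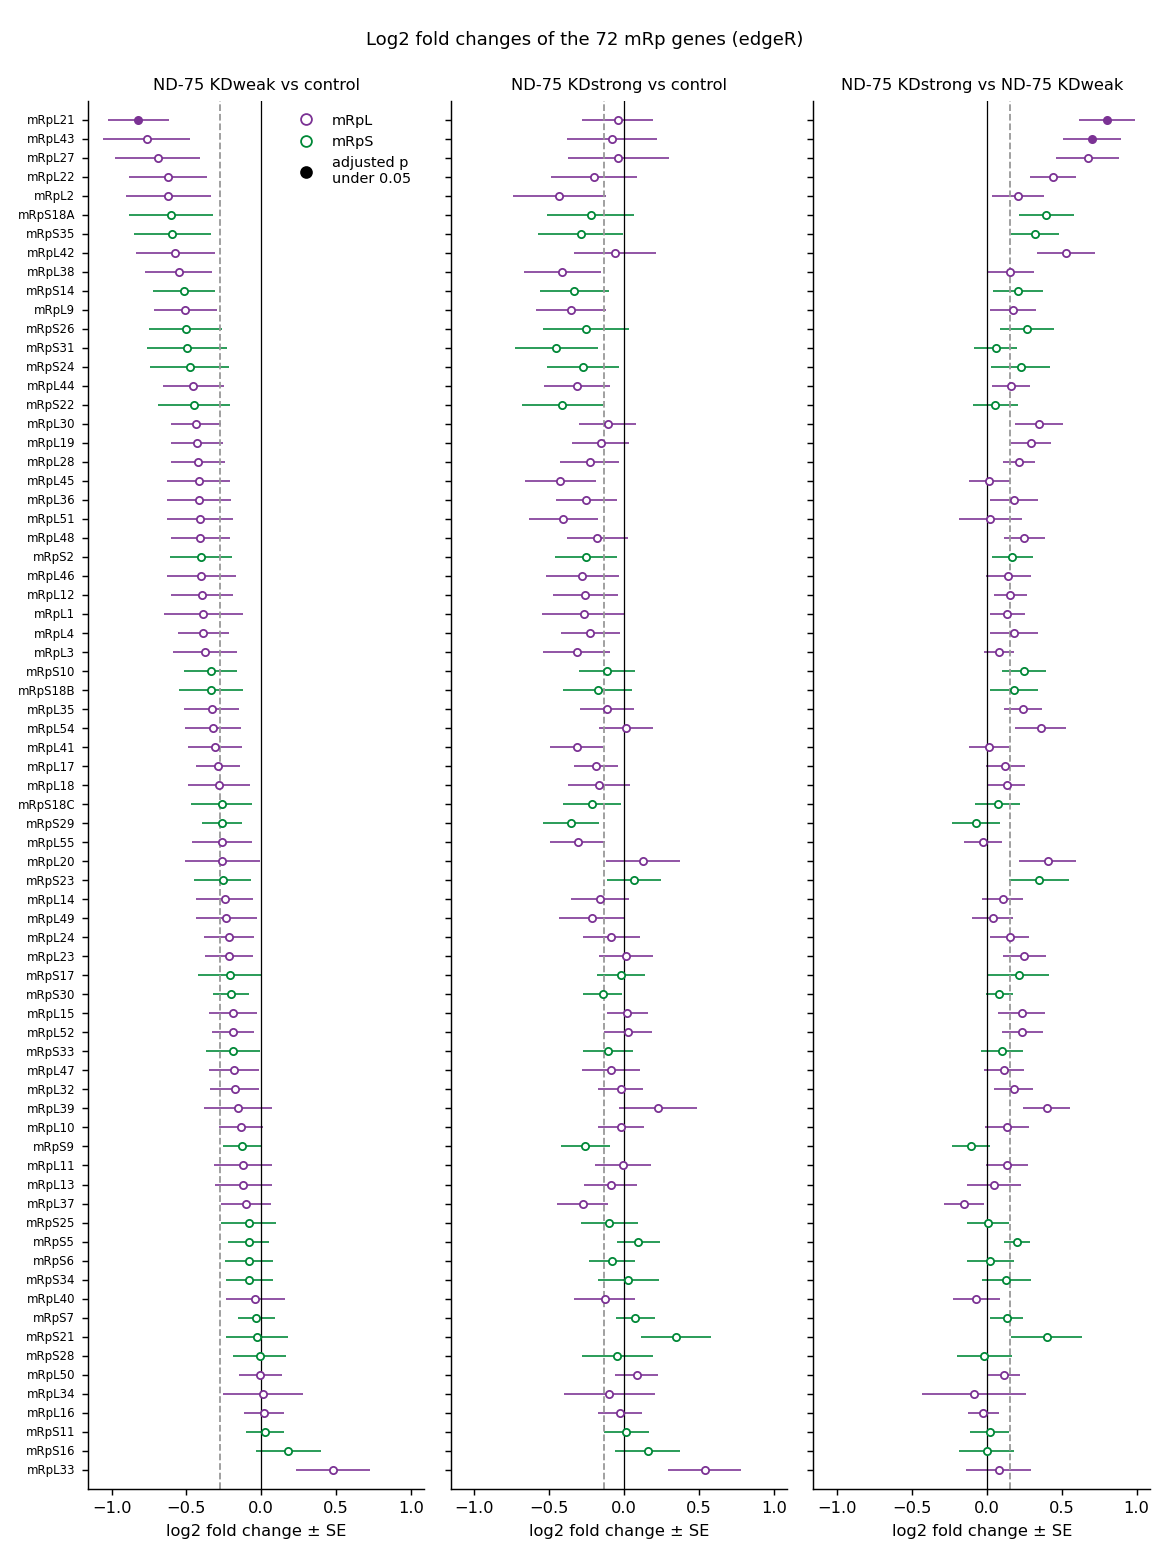
Log2 fold change ± SE of each of the 72 mRp genes in the 3 comparisons (edgeR, 4 libraries a genotype), ordered by KDweak against control, with mRpL in purple and mRpS in green. Filled points have an adjusted p under 0.05 (*mRpL21* on the left, *mRpL21* and *mRpL43* on the right), and dashed lines mark the family medians of -0.27, -0.14 and 0.15.

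In KDstrong heads, 0 mRp genes were called in either direction against control, against 1.78% of 10522 features called higher and 0.589% called lower. At an unadjusted p under 0.05 there was 1 (*mRpL33*, higher), against 703 higher and 493 lower of the 10522 features. DESeq2 called 0. The genotypes overlapped for all 72 genes, whereas 4.91% of all features were higher and 3.70% lower in KDstrong without overlap. The median log2 fold change of the family was -0.14 (25th to 75th percentile -0.26 to -0.02, 57 genes negative), and that of all features was -0.02. The sign of this median rested on 1 library, since without control replicate 3 it was 0.05, with 50 genes positive. Without control replicate 3 and KDstrong replicate 4 it was -0.02, with 41 genes negative. For 70 of the 72 genes the approximate 95% interval of the log2 fold change lay within 1 of 0, which does not show that the levels were the same.

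*mRpL33* had the largest value of KDstrong against control, a log2 fold change of 0.54 (SE 0.24, adjusted p = 0.436). It was at 3.40, 4.16, 3.49 and 2.13 CPM in controls, at 3.64, 3.58, 4.88 and 5.88 in KDweak, and at 5.95, 3.99, 3.80 and 5.49 in KDstrong. The genotypes overlapped in each comparison of its CPM. Relative to the family median of the same library it was at -2.87 to -2.08 on the log2 scale in controls. It was at -1.94 to -1.46 in KDweak and -1.93 to -1.54 in KDstrong. On this measure every knockdown library thus lay above every control. In control replicates 1 to 4 *mRpL33* was at -2.08, -2.09, -2.85 and -2.87, below every knockdown library also without replicate 3. The family median itself varied, deviating by 0.61 in control replicate 3 and by 0.01 in control replicate 4. A member that does not follow the family moves on this measure when that median moves. The part of this in the separation of *mRpL33* was not tested. Against control, 3 members were higher and 3 lower without overlap in KDweak, and 4 higher and 3 lower in KDstrong. The measure was not computed for other genes. After *mRpL33*, the next highest log2 fold changes of KDstrong against control were those of *mRpS21* (0.35, SE 0.23) and *mRpL39* (0.22, SE 0.26). *mRpL39* is a mitochondria-specific large subunit protein. In the other direction, the smallest p-values were those of *mRpS29* (-0.36, SE 0.19), *mRpL45* (-0.43, SE 0.24) and *mRpL41* (-0.32, SE 0.18). Their adjusted p-values were 0.545 to 0.572. *mRpL21* (-0.04, SE 0.24) and *mRpL43* (-0.08, SE 0.30), the genes singled out in the other comparisons, had approximate 95% intervals of -0.50 to 0.42 and -0.66 to 0.50. Without control replicate 3 the log2 fold change was 0.15 for *mRpL21*, 0.34 for *mRpL43*, 0.54 for *mRpL39*, 0.44 for *mRpS21*, -0.25 for *mRpS29*, -0.14 for *mRpL45* and -0.20 for *mRpL41*. Without KDstrong replicate 4 it was 0.06 for *mRpL39* and 0.20 for *mRpS21*.

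The knockdowns were then compared with each other, which leaves out the controls but uses the same KDweak libraries as above. Here 2 mRp genes, *mRpL21* and *mRpL43*, were higher in KDstrong and 0 were lower, against 8.18% of 10638 features called higher and 3.09% called lower. DESeq2 called both and *mRpL27*. The share of members called (2 of 72) was below that background. At an unadjusted p under 0.05, 8 were higher and 0 lower, against 1586 higher and 971 lower of the 10638 features. The knockdowns did not overlap for 4 mRp genes (*mRpL21*, *mRpL22*, *mRpL43* and *mRpS5*), all higher in KDstrong, against 11.6% of all features higher and 6.33% lower. The family median was 0.15 (25th to 75th percentile 0.06 to 0.24, 63 genes positive) and the median of all features was 0.02. Without KDstrong replicate 4 the family median was 0.05, with 51 positive, and without that library and KDweak replicate 2 it was 0.01, with 39 positive. With the length trend removed it was 0.06, with 52 positive.

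*mRpL21* differed between the knockdowns by a log2 fold change of 0.80 (SE 0.19, edgeR adjusted p = 0.0202), or 1.74-fold. The difference was 0.64 without KDstrong replicate 4 (adjusted p = 0.0295), and leaving out KDstrong replicate 1, KDweak replicate 3 or KDweak replicate 4 took it past the threshold (adjusted p 0.0558 to 0.0693). *mRpL43* (FBgn0034893, chromosome arm 2R, 23698105 to 23699014, plus strand) was at 17.7, 17.8, 13.8 and 24.6 CPM in KDstrong, each above the highest KDweak library at 13.2. The log2 fold change was 0.70 (SE 0.19, adjusted p = 0.0408), or 1.63-fold. It was 0.53 without KDstrong replicate 4 (adjusted p = 0.0595), and its adjusted p was also above 0.05 when any other library of the comparison except KDstrong replicate 3 was left out (0.0594 to 0.121) and when all 12 libraries were fitted together (0.164). The 66 bases of overlap between *mRpL43* and the gene *sigmar* on the opposite strand could carry reads of either, and *sigmar* had a log2 fold change of 0.13 (SE 0.13, adjusted p = 0.589).

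*mRpL27*, whose bacterial homologue reaches the peptidyl transferase centre, was at 15.1, 22.6, 46.0 and 20.6 CPM in controls, at 15.2, 15.2, 15.7 and 17.3 in KDweak, and at 25.1, 22.5, 16.5 and 38.1 in KDstrong. The KDweak libraries were close together, and 1 KDstrong library lay within their range. The log2 fold change between the knockdowns was 0.67 (SE 0.21, adjusted p = 0.073). It was 0.54 with the length trend removed (adjusted p = 0.032), 0.41 without KDstrong replicate 4 (adjusted p = 0.0817) and 0.66 with all 12 libraries in 1 fit (adjusted p = 0.226). The members with the smallest p in the other direction were *mRpL37* (-0.15, SE 0.13), *mRpS9* (-0.11, SE 0.13) and *mRpL40* (-0.07, SE 0.16), with adjusted p-values of 0.539 to 0.835.

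**Figure D4:**
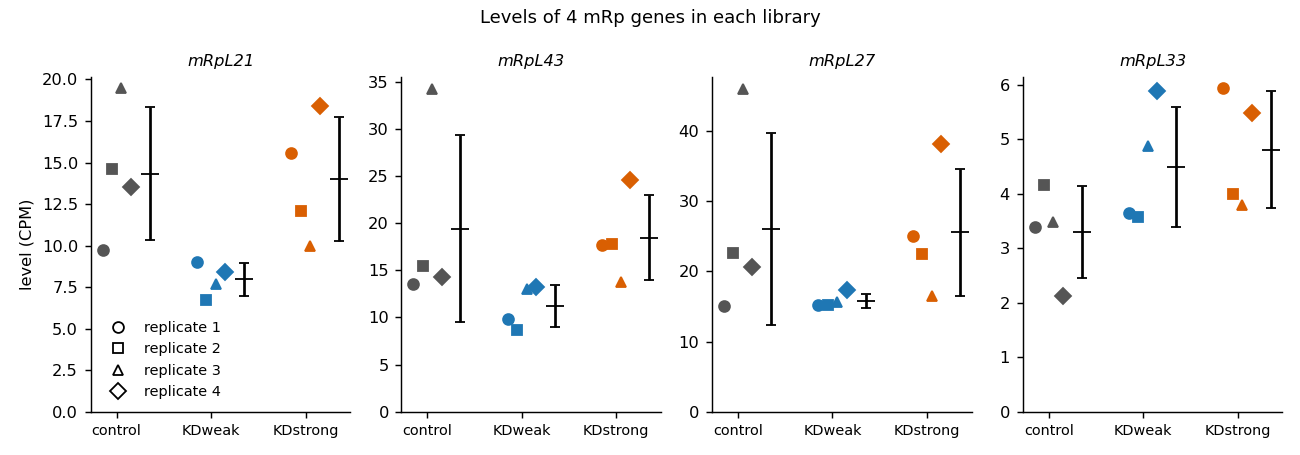
Level in CPM of *mRpL21*, *mRpL43*, *mRpL27* and *mRpL33* in each library by genotype (symbols mark the replicate, black bars mean ± SD of 4 libraries, axes start at 0). For *mRpL21* the KDweak libraries (6.71 to 9.02) lie below all others, and control replicate 3 is the highest control for every gene shown except *mRpL33*.

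Genes outside the family that serve mitochondrial gene expression were described beside it. *tko*, the small subunit protein S12, was at 13.8, 15.6, 23.0 and 16.2 CPM in controls, 14.4, 12.2, 14.4 and 13.1 in KDweak and 15.1, 14.1, 14.6 and 18.3 in KDstrong, with a log2 fold change of -0.32 (SE 0.17) in KDweak against control. *bonsai*, the small subunit protein S15, had -0.20 (SE 0.12) in the same comparison. Neither was called in any comparison (adjusted p 0.301 to 0.992). Against control, 0 of 9 mitochondrial translation factors, 0 of 15 mitochondrial aminoacyl-tRNA synthetases and 0 of 9 genes of mitochondrial RNA and DNA maintenance were called in KDweak, against the 3.98% of all features called lower and 2.56% called higher. Their median log2 fold changes were -0.30, -0.24 and -0.25, and without control replicate 3 -0.25, -0.23 and -0.18. In KDweak 1 translation factor, 5 synthetases and 5 maintenance genes were lower than control without overlap, against 9.35% of all features. In KDstrong against control also 0 of each were called, against 1.78% of all features called higher and 0.589% lower. The medians were -0.20, -0.17 and -0.05, and -0.04, -0.03 and 0.05 without control replicate 3.

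Other gene lists showed how far the values of the mRp genes were shared. Of all features, 2.56% were called higher and 3.98% lower in KDweak against control, and 1.78% and 0.589% in KDstrong. The 32 nuclear complex I genes include the RNAi target *ND-75*, with log2 fold changes of -0.59 in KDweak and -0.79 in KDstrong. The median log2 fold change of the 32 was -0.27 in KDweak and -0.25 in KDstrong against control, with 30 of 32 negative in each and 0 called. These medians were -0.09 and -0.06 without control replicate 3. That of 84 cytoplasmic ribosomal protein genes was 0.05 in KDweak, with 50 positive, and that of 85 in KDstrong was -0.10, with 67 negative, and 0 were called in either. These medians were 0.16 and 0.04 without control replicate 3. In KDstrong against KDweak their median was -0.15, and *RpS10a* alone of 85 was called, higher in KDstrong (log2 fold change 2.61, SE 0.42, adjusted p = 0.00286). Of 20 transcripts of mitochondrial DNA, 0 were called in any comparison of all libraries, with medians of -0.03 in KDweak and 0.20 in KDstrong against control (0.08 and 0.27 without control replicate 3). Among them the large ribosomal RNA, *mt:lrRNA*, was at 40700 ± 15600 CPM in controls, 28300 ± 628 in KDweak and 40600 ± 9610 in KDstrong, and the small ribosomal RNA, *mt:srRNA*, at 177 ± 56.7, 168 ± 24.1 and 173 ± 50.2 CPM. Either knockdown overlapped with control for both. For *mt:lrRNA* the 4 KDstrong libraries (30200 to 49800 CPM) lay above the 4 KDweak libraries (27500 to 29000), and for *mt:srRNA* the knockdowns overlapped. Of the 20 transcripts, 2 were higher in KDstrong than in KDweak without overlap, against 11.6% of all features, which is near that share.

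By library, the median deviation of the mRp genes from their mean over 12 libraries was 0.61 in control replicate 3, 0.28 in KDstrong replicate 4 and -0.34 in KDweak replicate 2, each the extreme of its genotype. In control replicate 3 it was also positive for nuclear complex I genes (0.69), mitochondrial translation factors (0.50) and cytoplasmic ribosomal proteins (0.37), and negative for neuron markers (-0.63). In KDstrong replicate 4 the corresponding values were 0.18, 0.27, 0.37 and -0.69. With the length trend removed the median deviation of the mRp genes was 0.30 in control replicate 3, 0.04 in KDstrong replicate 4 and -0.14 in KDweak replicate 2.

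**Figure D5:**
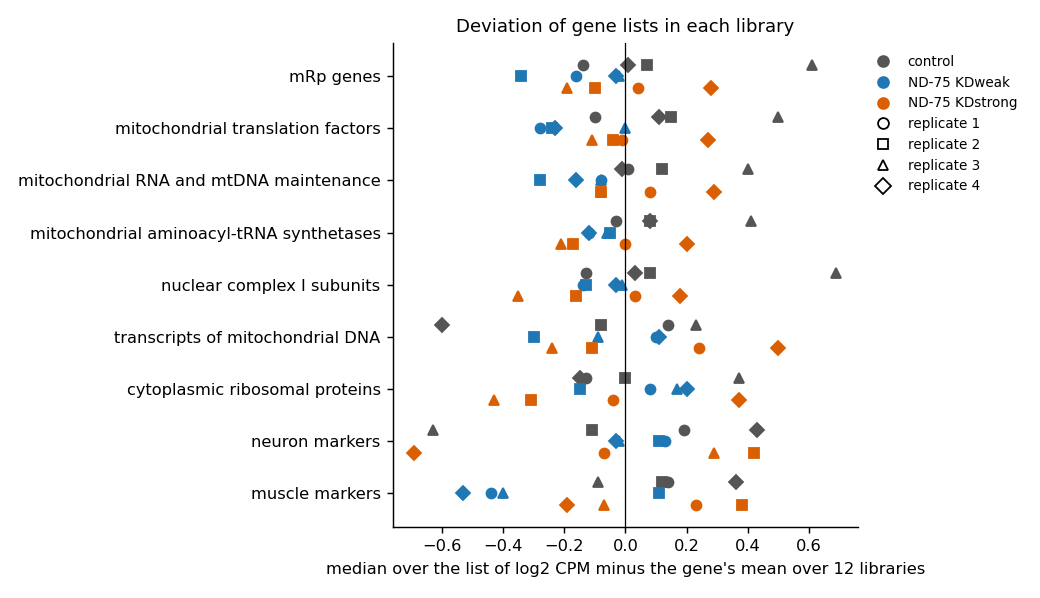
Median deviation of gene lists in each library, as log2 CPM minus the mean of the gene over all 12 libraries (grey control, blue KDweak, orange KDstrong, symbols mark the replicate). Control replicate 3 (0.61) and KDstrong replicate 4 (0.28) have the highest values for the mRp genes, as for most mitochondrial lists, and the lowest for neuron markers (-0.63 and -0.69).

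Markers of other tissues in the head also differed between the genotypes. The summed level of the 10 muscle markers was 5927 to 9284 CPM in KDweak against 8966 to 12060.0 in controls, with 9 of 9 tested negative and *Mlc2* called lower (log2 fold change -0.91, SE 0.21, adjusted p = 0.0283). In that genotype replicate 2, the one with the lowest mRp sum, had the highest muscle sum. The summed level of the 11 fat body markers was 53980 to 74850 CPM in KDweak against 37050 to 43650 in controls, with *Yp1*, *Yp2*, *Lsp2* and *to* called higher and *Fbp1*, *Fbp2* and *Lsp1gamma* lower. Of the 7 hemocyte markers 2 (*PPO1* and *PPO2*) were called higher in KDweak, against 2.56% of all features. Of the 7, 4 were positive and 3 negative. Their summed level was 1295 to 1724 CPM in KDweak and overlapped with 1451 to 1819 in controls. In KDweak against control 0 of the 11 neuron, 8 glia and 10 photoreceptor markers were called. In KDstrong against control, *Fbp1* and *Lsp1gamma* were called higher, with 11 of 11 fat body markers positive, and 10 of 10 photoreceptor markers were negative with 0 called. The fat body sum of KDstrong replicate 4, the library with the highest mRp sum of its genotype, was 73400 CPM against 30610 to 40720 in the other KDstrong libraries. Control replicate 3 had the highest mRp sum of all libraries. Its fat body sum (39960 CPM), muscle sum (11240 CPM) and glia sum (3597 CPM) lay within the range of the other controls. Its photoreceptor sum (51800 CPM) was above the other controls (37800 to 46420 CPM). Its neuron sum (2136 CPM against 2971 to 3760) and hemocyte sum (1451 CPM against 1581 to 1819) were below them. Between the knockdowns, the fat body markers *Fbp2* (log2 fold change 7.73), *Fbp1* (5.69) and *Lsp1gamma* (4.92) and the muscle markers *Mlc2* (0.70) and *wupA* (0.60) were called higher in KDstrong. The fat body genes *to* and *FASN1*, the hemocyte genes *Hml*, *Pxn*, *PPO1* and *PPO2* and the photoreceptor opsin *ninaE* were called lower in it. Of the 11 fat body markers 4 were positive and 7 negative in this comparison, with a median of -0.43. The fat body sums overlapped, at 30610 to 73400 CPM in KDstrong and 53980 to 74850 in KDweak. Of the 9 muscle markers tested 8 were positive and 1 negative. Of all features 8.18% were called higher and 3.09% lower. The part of these tissues in the mRp values was not tested.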

How the data were processed

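RNA-seq of pooled heads gave 12 libraries, 4 for each genotype. The authors deposited 3 tables of raw counts per feature, made with fastp, HISAT2 and featureCounts according to the submitters' processing notes. Their versions and the genome build: not given in the sources used here. Coordinates of 99.9% of 14776 features equal those of release 6 (Ensembl). Also deposited were 48 columns of normalized values and FPKM per library, and fold changes and p-values from the authors' DESeq2 comparisons, none of which were used.

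The counts were tested with edgeR 4.0.16 (R 4.3.3) on the 8 libraries of each comparison, with TMM scaling, filterByExpr (minimum count 10, minimum total count 15), the quasi-likelihood test and Benjamini-Hochberg adjustment over all features tested, called at 0.05. CPM used TMM over 12 libraries. Log2 CPM had a prior count of 2. Standard errors came from the F statistic and 95% intervals are 1.96 SE to either side. These intervals are approximate and narrower than the quasi-likelihood test implies. That of *mRpL45* in KDweak against control, -0.83 to -0.01, left out 0 although the test gave an unadjusted p of 0.0693. Alternatives were DESeq2 1.42.0, its size factors (RLE), no filter, all 12 libraries in 1 fit, a replicate block, removal of a lowess trend on gene length (span 0.3), leaving out transposable elements, and leaving out libraries. The tests were tested on simulated data. No libraries were duplicates (chi-square per degree of freedom at least 9.75). Tables and figures used Python 3.11.15, numpy 2.4.6, pandas 2.3.3, scipy 1.17.1 and matplotlib 3.10.9.

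The members and lists were chosen with earlier results of these data known. Named genes are the called members, the 3 smallest p in each direction, the 4 highest and 4 lowest per kilobase, the extremes of variation, 12 by role, *tko*, *bonsai*, *ND-75* and called members of the other lists. *mRpL4*, *mRpL17*, *mRpL19*, *mRpL22*, *mRpL42* and *mRpS5* and the neighbours *rept* and *sigmar* were named after their values were seen. No sequences are shown.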

Additional observations from a re-analysis of the deposited data

Results flagged for a closer look

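The knockdowns differed for *mRpL21* and *mRpL43* in the comparison of KDstrong with KDweak that also called them, so this restates those calls and is no further test. The log2 fold change of KDstrong against KDweak was 0.80 for *mRpL21* and 0.70 for *mRpL43* (edgeR adjusted p = 0.0202 and 0.0408, n = 4 libraries each), where 8.18% of all features were called higher. With 1 library left out, the adjusted p was above 0.05 for *mRpL21* in 3 of 8 cases and for *mRpL43* in 7 of 8, and for *mRpL43* it was 0.164 with all 12 libraries in 1 fit.

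A library lay far from the other libraries of its genotype (Dixon's test at 95%) in 10 of 90 sets of 4 libraries, which cover the named mRp genes and the summed level. Chance flags about 1 in 20 independent sets. These sets share the same libraries, and some genes were named by their p or variation in these data. The count therefore cannot be read against that rate. Control replicate 3 was the high library in 6 of these sets, at 52.7 CPM for *mRpL1*, 48.5 for *mRpL12*, 65.1 for *mRpL2*, 47.1 for *mRpL3*, 34.2 for *mRpL43* and 13.6 for *mRpS18B*. KDweak replicate 2 was the low library for *mRpL11* (5.89 CPM), *mRpL2* (19.6) and *mRpL30* (15.3). KDweak replicate 3 was the high library for *mRpL45*, at 40.1 CPM.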

How the results depend on the processing

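The family median kept its sign under all alternatives run for KDweak against control (-0.36 to -0.07) and for KDstrong against KDweak (0.01 to 0.20), and for KDstrong against control except without control replicate 3 (0.05, otherwise -0.23 to -0.02). At the near ends it was close to all features. Without control replicate 3 and KDweak replicate 2 it was -0.07 against -0.022 for all features, of which 53.5% were negative. Without KDstrong replicate 4 and KDweak replicate 2 it was 0.008 against 0.005, with 39 of 72 members positive. With the gene length trend removed, 2 mRp genes were called lower in KDweak against control (also 2 when control replicate 3 was dropped as well) and 5 were called higher in KDstrong than in KDweak (*mRpL21*, *mRpL22*, *mRpL27*, *mRpL42* and *mRpL43*). Fitting all 12 libraries together left 1 of the latter, as did dropping KDstrong replicate 4 and KDweak replicate 2 (1). In KDstrong against control, dropping control replicate 3 and KDstrong replicate 4 with the length trend removed called 1 higher (*mRpL39*) and 1 lower (*mRpS29*). Leaving out 1 library at a time gave 0 to 2 genes called lower in KDweak against control and 0 to 4 called higher in KDstrong than in KDweak. The alternatives that drop 2 libraries, or 1 with the length trend removed, were chosen after the data were seen. Of 1450 further values of single mRp genes, 18 lost a call, 7 gained one and 0 called values changed sign, while 40 of 87 log2 fold changes, none of them called, had another sign under at least 1 alternative. The cause was not tested.

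Same-numbered libraries did not deviate together (correlations of -0.43 to 0.13 over features, and not every library matched its own number best), so they share only a number. With the replicate block, 1 mRp gene was lower in KDweak against control, 0 were called in KDstrong against control, and 2 were higher in KDstrong than in KDweak, as without it.

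Over all features, the number called in KDweak against control was 267 higher and 414 lower, 498 and 622 with DESeq2, and 525 and 613 with the length trend removed. In KDstrong against control it was 187 and 62, 371 and 133 with DESeq2, and 281 and 108 with the trend removed. Between the knockdowns it was 870 and 329, 1087 and 599 with DESeq2, and 1044 and 601 with the trend removed. The lowest count of an mRp gene in a library was 24, and counting error was not compared with the spread between libraries.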
